A study of Homo sapiens with 6 samples.

Results

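Interferon-stimulated genes were followed across 6 arrays of the human myeloma cell line NCI-H929 after knockdown of ribonucleotide reductase. The enzyme makes deoxyribonucleotides for DNA synthesis from a large subunit, RRM1, and a small subunit, RRM2. The cells were electroporated with siRNA against RRM1 (siRRM1), siRNA against RRM2 (siRRM2) or a non-targeting scramble siRNA, and RNA was taken 24 h later, with 2 arrays in each group. All groups share the cell line, the electroporation and the presence of an siRNA, and no group without siRNA was analysed here. The siRNA sequences and their number per gene are not given in the sources used here, and nothing in the labels ties replicate arrays to separate cultures. The p-values therefore measure only the spread between these samples, which may be technical.

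The gene set holds 39 well known interferon-stimulated genes, listed by name from general knowledge of the pathway. This set and the further gene lists were chosen with earlier results of these data known. Their shares beside those of all genes are therefore descriptive. The platform annotation gave 59 probe sets to 38 of them, out of 22277 probe sets and 11963 named genes on the array, and STAT2 was not analysed here. A gene was represented by its probe set with the highest mean log2 signal over the 6 arrays. It was tested where its mean was at least 5.44, a filter set at the 40th percentile over the array, which kept 26 of the 38 genes and 7936 genes in all. The 12 genes under this limit are called dim: OAS3, IFIT1, IFIT2, IFIT5, GBP1, USP18, HERC6, RSAD2, TRIM22, IFI44, IFI44L and XAF1. A gene was called changed when the limma adjusted p (Benjamini-Hochberg, over all 7936 genes) was under 0.05. Differences are on the log2 scale, where 1 stands for 2-fold.

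Type I interferons are secreted proteins that bind a shared receptor on the cell surface and activate the kinases JAK1 and TYK2. These phosphorylate STAT proteins, which join IRF9 in a complex that enters the nucleus and binds a promoter sequence called the interferon-stimulated response element (ISRE). The genes it switches on include sensors of foreign nucleic acid, enzymes that degrade or block viral RNA, and the transcription factors that amplify the response. Many are also read as a sign that a cell has detected DNA or RNA in its cytosol.

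The ISRE was looked for as letters in the promoters of the listed genes. Its core was searched as GAAA, any 2 bases and GAAA again, on both strands, in the RefSeq promoter windows of build GRCh38.p14, which run from 250 bases before to 50 bases after a gene's start. Windows were given for 30 of the 39 genes. The 5 genes below were called higher in a knockdown and hold the core, and are printed in order of their largest log2 difference. Each line gives the 250 bases before the start, on the + strand, with the core in capitals. It reads TTTC, 2 bases, TTTC where it lies on the other strand, and overlapping copies form 1 longer run of capitals.

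IFITM1: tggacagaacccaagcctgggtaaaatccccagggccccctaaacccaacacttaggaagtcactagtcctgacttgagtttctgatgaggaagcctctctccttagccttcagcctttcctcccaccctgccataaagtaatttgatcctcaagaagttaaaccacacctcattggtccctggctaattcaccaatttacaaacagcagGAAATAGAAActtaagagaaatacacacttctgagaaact
ISG15: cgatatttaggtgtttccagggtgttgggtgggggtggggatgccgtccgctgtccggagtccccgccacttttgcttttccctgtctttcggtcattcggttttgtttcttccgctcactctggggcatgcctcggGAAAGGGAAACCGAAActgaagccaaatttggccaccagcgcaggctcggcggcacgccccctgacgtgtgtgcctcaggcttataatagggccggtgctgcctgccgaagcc
HERC5: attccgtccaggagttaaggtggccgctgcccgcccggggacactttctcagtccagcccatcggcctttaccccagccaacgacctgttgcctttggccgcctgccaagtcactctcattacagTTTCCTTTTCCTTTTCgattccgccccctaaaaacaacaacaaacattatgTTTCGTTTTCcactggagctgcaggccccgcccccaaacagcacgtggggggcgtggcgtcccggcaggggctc
IFI27: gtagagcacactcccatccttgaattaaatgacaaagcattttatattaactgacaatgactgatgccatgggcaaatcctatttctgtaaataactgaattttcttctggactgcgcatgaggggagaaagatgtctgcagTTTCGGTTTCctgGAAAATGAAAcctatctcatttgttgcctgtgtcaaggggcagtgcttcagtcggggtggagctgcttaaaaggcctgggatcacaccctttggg
MX1: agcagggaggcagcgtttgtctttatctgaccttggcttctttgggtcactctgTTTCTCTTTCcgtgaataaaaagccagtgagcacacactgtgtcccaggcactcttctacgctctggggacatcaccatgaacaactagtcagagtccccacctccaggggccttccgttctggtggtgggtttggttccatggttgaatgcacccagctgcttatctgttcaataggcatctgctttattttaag

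IFITM1 lies at chr11:313790-314039, ISG15 at chr1:1013247-1013496, HERC5 at chr4:88456869-88457118, IFI27 at chr14:94110486-94110735 and MX1 at chr21:41431800-41432049. The run of capitals in ISG15 is 2 overlapping cores, HERC5 has 3 cores of which 2 overlap, and IFI27 has 2, on opposite strands. IFITM1 has a second core that crosses its start and is therefore not capitalised. MX1 has 3 windows and is shown at the window with a core wholly before the start. Its window at chr21:41420308-41420607 holds a core after the start, at positions 12 to 21. Of the 30 genes with a window, 20 (66.7%) held the core, against 1195 of 27305 genes (4.38%) over all promoters of the same length. Counting only genes with a window, the core was in 5 of the 7 called higher in a knockdown. It was in 8 of the 13 tested genes not called higher (61.5%) and in 7 of the 9 dim genes (77.8%). IRF7, OAS2, GBP2 and OASL were also called higher but had no window. The element recognised by STAT dimers was searched as TTCNNNGAA, which reads the same on both strands, and was in 9 of the 30 genes (30.0%) against 9.38% of all genes. Among the same genes with a window, it was in 5 of the 7 called higher. It was in 4 of the 13 tested genes not called higher and in 0 of the 9 dim genes. OAS1 and SP110, which are among the genes that rose, do not hold the ISRE core in their windows. Such a match is a description of the letters and no evidence of binding.

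The arrays had medians between 6.11 and 6.16, and replicates correlated at r = 0.993 to 0.996 across genes. Each siRNA lowered its target, RRM1 by a log2 difference of -2.63 in siRRM1 (adjusted p = 0.00154) and RRM2 by -1.79 in siRRM2 (adjusted p = 0.0214). All 11 measured plasma cell and myeloma markers passed the filter. The summed level of that list, on the log2 scale, was 15.25 to 15.40 in scramble, 15.03 to 15.09 in siRRM1 and 15.22 to 15.33 in siRRM2, and 2 of the 11 were lower in siRRM1 (FGFR3 and IRF4). Both siRRM1 arrays lay below both scramble arrays for 10 of the 11, against 30.9% of all genes, with 6 at an unadjusted p under 0.05 and a median difference of -0.27. Over all genes tested, 8.22% were called higher and 7.33% lower in siRRM1, and 2.00% and 0.517% in siRRM2. Some markers of other blood cells moved with the knockdowns. The filter uses the mean of all 6 arrays, so a marker low in scramble can pass it through the knockdown arrays. Of 9 myeloid markers with a probe set, 4 passed the filter, and S100A8 (4.23), S100A9 (2.55) and CSF1R were higher in siRRM1, with 0 of the 4 called in siRRM2 by limma (2 at an unadjusted p under 0.05). The siRRM2 difference of S100A8 was 2.94 (adjusted p = 0.0526) and that of S100A9 was 1.39 (adjusted p = 0.127). The summed level of all 9 myeloid markers, dim ones included, was 8.16 to 8.21 in scramble. It was 9.54 to 10.65 in siRRM1 and 8.75 to 9.62 in siRRM2. Of 9 T and NK cell markers with a probe set, 3 passed the filter, with NKG7 (1.36) and TRBC1 (1.09) higher in siRRM1 and TRBC1 (0.64) in siRRM2. NKG7 had a difference of 1.30 in siRRM2 (adjusted p = 0.0563), and all 3 were at an unadjusted p under 0.05 there. The summed level of all 9 T and NK cell markers, dim ones included, was 10.39 to 10.41 in scramble. It was 11.30 to 11.44 in siRRM1 and 10.89 to 11.07 in siRRM2. CD14, LYZ, CD3D, CD2 and CD8A were not among the tested genes. Of 3 tested plasmacytoid dendritic cell markers, 0 were called in either knockdown by limma, with 1 at an unadjusted p under 0.05 in siRRM1. Of 3 tested stromal markers, ACTA2 (2.10) and FN1 (0.37) were higher in siRRM1 and ACTA2 (1.31) in siRRM2, and 0 of the 2 tested epithelial markers were called or at an unadjusted p under 0.05. The part of these leukocyte and stromal transcripts in the results below was not tested. In bulk RNA, fewer cells of a type and less RNA per cell cannot be told apart. ACTB probe sets differed between the 3′ and 5′ end by 0.34 on scramble replicate 1 and 0.33 on siRRM1 replicate 2, against 0.03 to 0.15 on the other arrays.

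In siRRM1 against scramble, 7 of the 26 tested interferon-stimulated genes rose, GBP2, HERC5, ISG15, OAS1, OAS2, OASL and SP110, and 1 fell, ISG20. GBP2 passed the filter only through its knockdown arrays, as its scramble mean of 5.35 lay under the limit of 5.44. Over all genes tested 8.22% were called higher and 7.33% lower, 15.5% in either direction. The other 18 members were not called, and 16 of the 26 were at an unadjusted p under 0.05, against 32.6% of all genes. The median difference over the 26 was 0.30, with a range from -0.45 to 1.06, against a median of -0.01 over all genes. The 2 siRRM1 arrays both lay above both scramble arrays for 17 of the 26 genes, against 28.4% of all genes, and both lay below for 4, against 30.9%.

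In siRRM2 against scramble, 6 of the 26 rose, IFI27, IFITM1, IRF7, ISG15, MX1 and OAS1, and 0 fell. IFI27 passed the filter only through its knockdown arrays, as its scramble mean of 5.41 lay under the limit of 5.44. Over all genes 2.00% were called higher and 0.517% lower, 2.52% in either direction. The other 20 were not called, and 16 were at an unadjusted p under 0.05, against 20.4% of all genes. The median difference was 0.39, with a range from -0.14 to 1.15, against -0.0033 over all genes. Both siRRM2 arrays lay above both scramble arrays for 21 of the 26 genes, against 27.1% of all genes, and below for 1, against 27.7%. Both comparisons use the same 2 scramble arrays, so their values are given side by side and no overlap is read from them. The count of calls depended on single arrays. In siRRM1 it was 5 without scramble replicate 1 and 3 without siRRM1 replicate 2. In siRRM2 it was 0 when scramble replicate 1 or siRRM2 replicate 2 was left out. It was 1 in the absence of siRRM2 replicate 1, 2 in that of scramble replicate 2 and 4 in that of siRRM1 replicate 1.

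**Figure D1:**
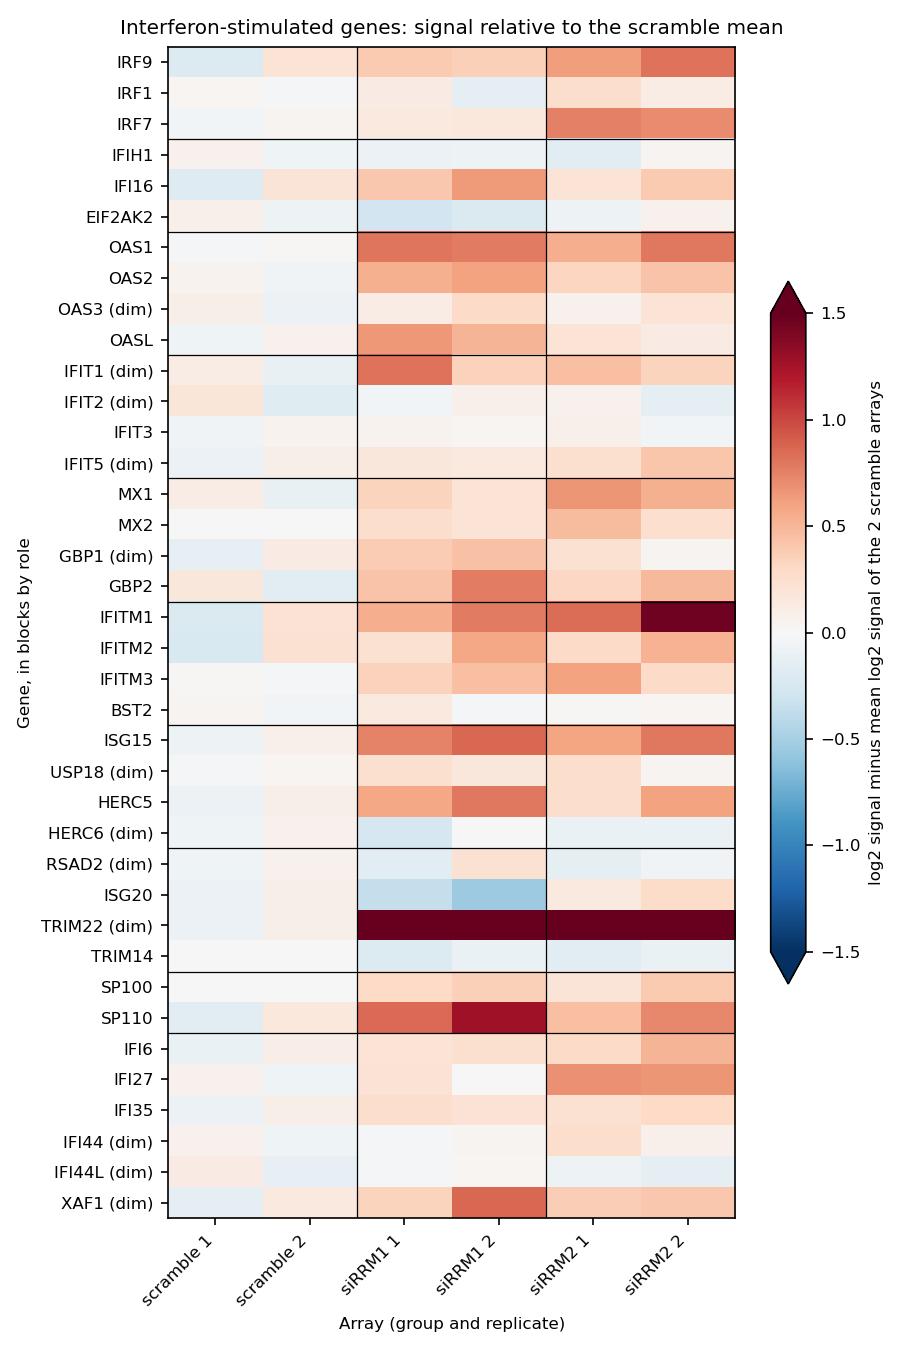
Log2 signal of the 38 interferon-stimulated genes with a probe set (rows, in blocks by role) on each of the 6 arrays (columns), minus the mean of the 2 scramble arrays. TRIM22 lies beyond the upper end of the colour scale. Red fills most of the knockdown columns, ISG20 is blue in siRRM1, and IRF9, IRF7 and IFI27 are redder in siRRM2 than in siRRM1.

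**Figure D2:**
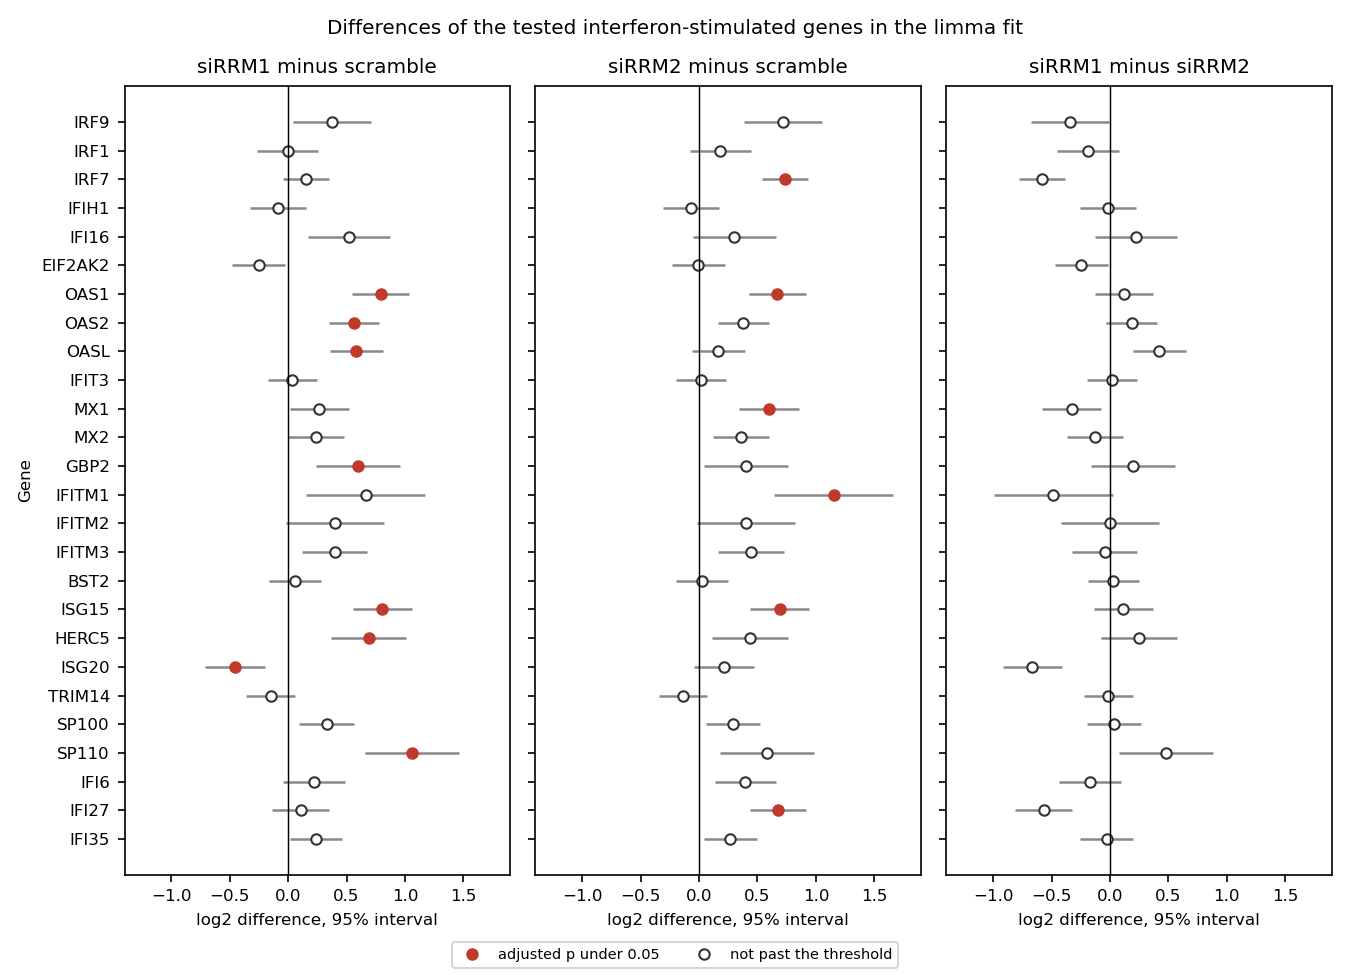
Log2 difference (points) with its 95% confidence interval from the limma fit (lines) for the 26 tested genes, in siRRM1 minus scramble, siRRM2 minus scramble and siRRM1 minus siRRM2. Filled points passed an adjusted p of 0.05: 8 in siRRM1, 6 in siRRM2 and 0 between the knockdowns.

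The 3 tested transcription factors of the pathway had their highest group means in siRRM2. Between the knockdowns the main limma fit called 0 of them (adjusted p = 0.0656 for IRF7, 0.484 for IRF9 and 0.632 for IRF1). IRF7, the factor that amplifies interferon gene transcription, read 6.71 and 6.78 in scramble, 6.89 and 6.91 in siRRM1 and 7.50 and 7.46 in siRRM2 (probe set 208436_s_at). Both siRRM2 arrays stood above the other 4. IRF7 rose in siRRM2 by 0.73 (SE 0.085, adjusted p = 0.0145), which is 1.66-fold, and its difference in siRRM1 was 0.15 (adjusted p = 0.256). IRF9, the DNA-binding partner of the STAT complex, read 7.72 and 8.14 in scramble, 8.33 and 8.29 in siRRM1 and 8.56 and 8.75 in siRRM2. The 3 groups did not overlap, but the scramble arrays lay far apart. The difference of IRF9 was 0.72 in siRRM2 (SE 0.14, adjusted p = 0.0502), at the threshold, and 0.38 in siRRM1 (adjusted p = 0.119). These are values of probe set 203882_at. Another probe set, 220788_s_at, is annotated to both RNF31 and IRF9 and was named for neither. It did not run the same way, with differences of 0.07 in siRRM2 and -0.28 in siRRM1 and overlapping groups. IRF1, a factor induced most strongly by interferon gamma, read 8.25 and 8.20 in scramble, 8.35 and 8.09 in siRRM1 and 8.49 and 8.33 in siRRM2. Its differences were -0.0049 in siRRM1 (adjusted p = 0.981) and 0.18 in siRRM2 (adjusted p = 0.405). The IRF7 call did not pass without scramble replicate 1 (adjusted p = 0.0636), siRRM2 replicate 1 (0.0751) or siRRM2 replicate 2 (0.0849), with log2 differences of 0.70 to 0.75.

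IFI16, IFIH1 and EIF2AK2, the members grouped here as nucleic acid sensors, did not pass the test in either knockdown. IFI16, a nuclear DNA sensor, had a difference of 0.52 in siRRM1 (adjusted p = 0.0548) and 0.30 in siRRM2 (adjusted p = 0.312). It read 11.41 and 11.80 in scramble, 12.01 and 12.24 in siRRM1 and 11.81 and 12.00 in siRRM2. Its probe set 208965_s_at ran the same way, with differences of 0.53 and 0.35, and 206332_s_at gave 0.34 and 0.07. IFIH1, the sensor MDA5 for long double-stranded RNA, had differences of -0.09 and -0.07. EIF2AK2, the kinase PKR that stops translation when it binds double-stranded RNA, had -0.25 in siRRM1 (adjusted p = 0.122) and -0.0072 in siRRM2. A second EIF2AK2 probe set, 204211_x_at, gave 0.05 and 0.08.

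The oligoadenylate synthetases make a messenger that activates RNase L. All 3 tested members rose in siRRM1, against 8.22% of all genes called higher. In siRRM2 1 of the 3 rose, against 2.00% of all genes. OAS1 read 6.31 and 6.34 in scramble, 7.13 and 7.11 in siRRM1 and 6.87 and 7.12 in siRRM2 (205552_s_at). All 4 knockdown arrays stood above both scramble arrays. OAS1 rose by 0.79 in siRRM1 (SE 0.11, adjusted p = 0.00458), 1.73-fold, and by 0.67 in siRRM2 (SE 0.11, adjusted p = 0.0255), 1.59-fold. The other OAS1 probe set, 202869_at, read 6.01 and 6.28 in scramble, 7.01 and 7.52 in siRRM1 and 6.82 and 7.01 in siRRM2. OAS2 read 6.83 and 6.73 in scramble, 7.31 and 7.38 in siRRM1 and 7.11 and 7.21 in siRRM2 (204972_at). Again the scramble arrays were the lowest. OAS2 rose by 0.56 in siRRM1 (SE 0.093, adjusted p = 0.00936), and its difference in siRRM2 was 0.38 (adjusted p = 0.0799). Its second probe set, 206553_at, gave smaller differences of 0.19 and 0.12. OASL, a catalytically inactive relative that binds RNA sensors, read 5.82 and 5.95 in scramble, 6.53 and 6.40 in siRRM1 and 6.09 and 6.00 in siRRM2 (210797_s_at). The siRRM1 arrays stood apart, and the siRRM2 arrays lay just above scramble. OASL rose by 0.58 in siRRM1 (SE 0.097, adjusted p = 0.00977), with 0.16 in siRRM2 (adjusted p = 0.390), and 205660_at gave 0.64 and 0.23. OAS3 was dim, at 4.86 to 5.24 over all arrays. In the RefSeq order OAS1, OAS3 and OAS2 are direct neighbours on chromosome 12.

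In siRRM1, OAS1 kept its call whichever of the 6 arrays was left out. OAS2 in siRRM1 was lost without siRRM1 replicate 2 (0.53, adjusted p = 0.0601) and OASL without scramble replicate 1 (0.52, adjusted p = 0.0536). The siRRM2 call of OAS1 did not pass without scramble replicate 1 (adjusted p = 0.245), scramble replicate 2 (0.0748), siRRM2 replicate 1 (0.0544) or siRRM2 replicate 2 (0.134), with log2 differences of 0.54 to 0.80.

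**Figure D3:**
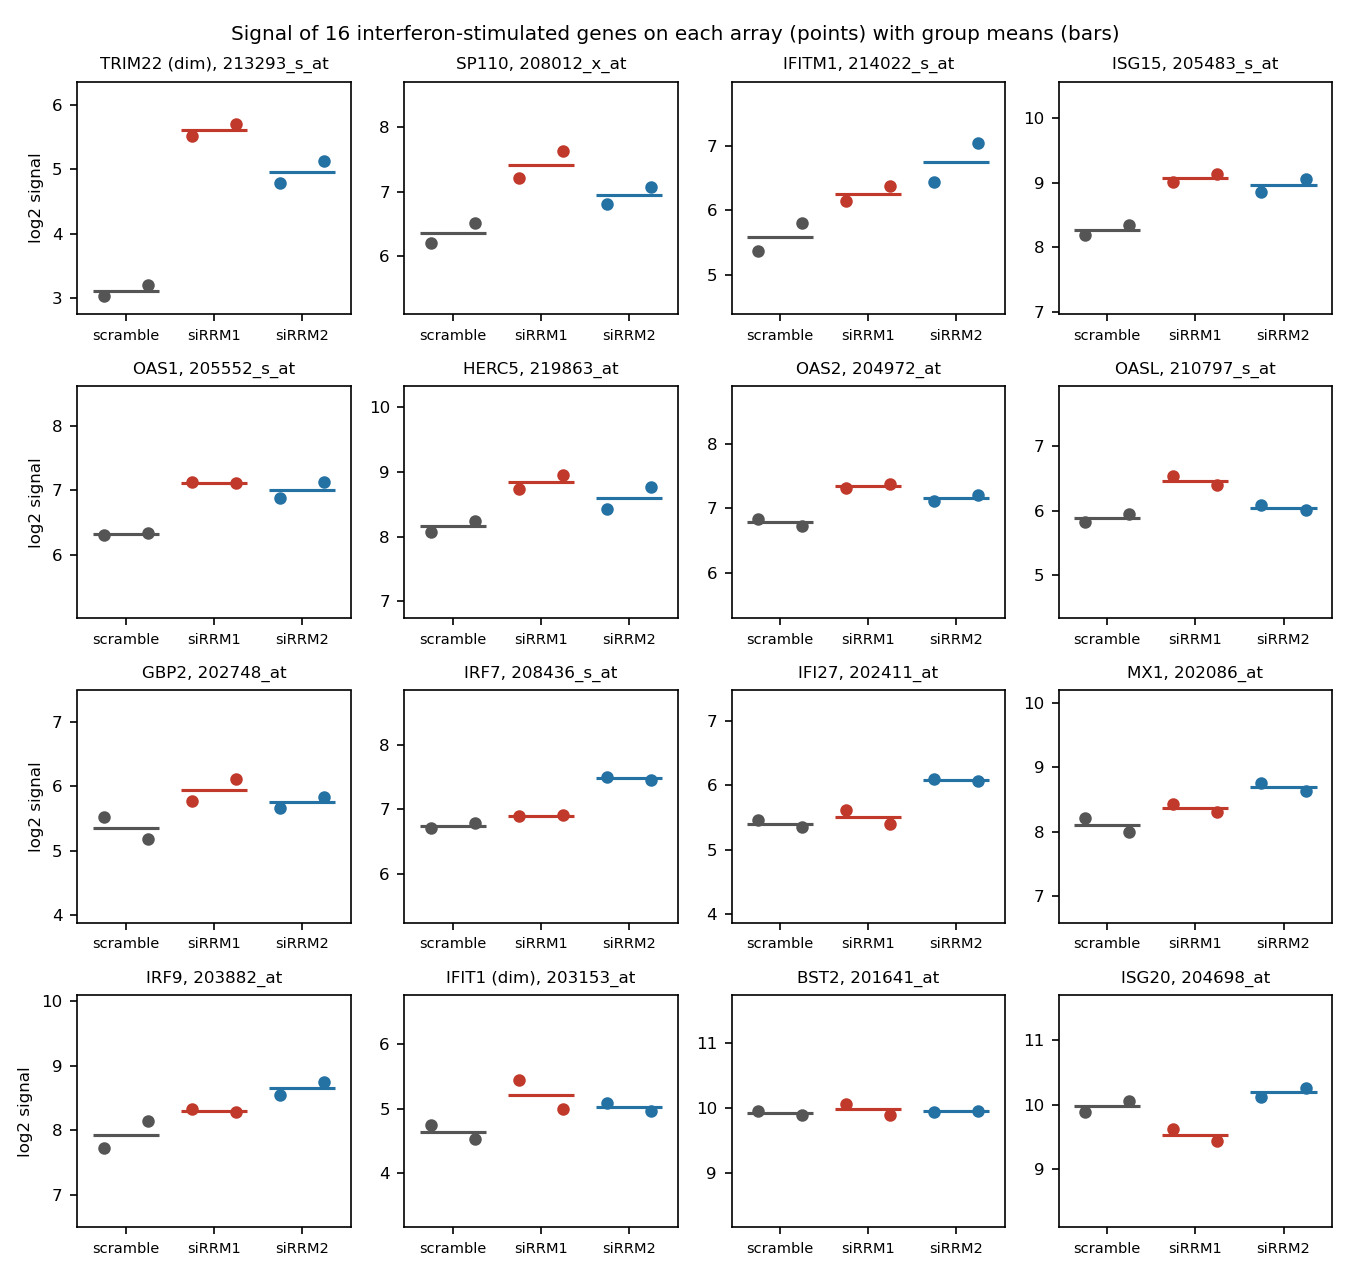
Log2 signal of 16 interferon-stimulated genes on each of the 6 arrays (points), with the mean of each group (bars); every panel spans the same range of log2 units around its own mean. SP110, ISG15 and OAS1 have all 4 knockdown arrays above both scramble arrays, IRF7 and IFI27 have siRRM2 apart from the other groups, and ISG20 has siRRM1 lowest.

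The IFIT proteins, which bind viral RNA and block its translation, were mostly too dim to test, although IFIT1 is among the strongest interferon targets in many cells. IFIT1 (dim) read 4.75 and 4.53 in scramble, 5.45 and 4.99 in siRRM1 and 5.09 and 4.97 in siRRM2. All knockdown arrays were above scramble, at signals under the filter. When all 11963 genes were fitted without the filter, its differences were 0.58 in siRRM1 (adjusted p = 0.0540) and 0.39 in siRRM2 (adjusted p = 0.278). IFIT3, the 1 tested member of the family, read 5.82 and 5.91 in scramble, 5.91 and 5.89 in siRRM1 and 5.94 and 5.83 in siRRM2, with overlapping groups and differences of 0.04 and 0.02. IFIT2 lay at 4.38 to 4.75 and IFIT5 at 4.33 to 4.83. The 4 genes lie side by side on chromosome 10, with 1 other gene between IFIT3 and IFIT1.

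Among the interferon-induced GTPases, MX1 and GBP2 each passed in 1 knockdown. MX1, which traps viral nucleoproteins, read 8.20 and 7.99 in scramble, 8.43 and 8.30 in siRRM1 and 8.76 and 8.63 in siRRM2. The siRRM2 arrays were the highest and the scramble arrays the lowest. MX1 rose by 0.60 in siRRM2 (SE 0.11, adjusted p = 0.0383), 1.51-fold, and its difference in siRRM1 was 0.27 (adjusted p = 0.138). The neighbouring gene MX2, whose protein blocks nuclear import of HIV, had 0.24 in siRRM1 (adjusted p = 0.157) and 0.36 in siRRM2 (adjusted p = 0.112). GBP2, a guanylate-binding protein that attacks the membranes around intracellular pathogens, read 5.51 and 5.18 in scramble, 5.78 and 6.11 in siRRM1 and 5.66 and 5.84 in siRRM2. Scramble was lowest, and the knockdowns overlapped each other. GBP2 rose by 0.60 in siRRM1 (SE 0.15, adjusted p = 0.0396), with 0.40 in siRRM2 (adjusted p = 0.201). Its neighbour GBP1 was dim, at 3.79 to 4.35.

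Both calls were close to the threshold. MX1 in siRRM2 did not pass without siRRM2 replicate 1 (adjusted p = 0.221), siRRM2 replicate 2 (0.133), scramble replicate 1 (0.0770), scramble replicate 2 (0.125) or siRRM1 replicate 1 (0.0501), at differences of 0.49 to 0.70. GBP2 in siRRM1 was lost without siRRM2 replicate 1 (0.60, adjusted p = 0.0535), siRRM2 replicate 2 (0.60, 0.0541), siRRM1 replicate 2 (0.43, 0.195) or scramble replicate 2 (0.43, 0.146). The MX1 call was also lost when every probe set was fitted (adjusted p = 0.0582), and that of GBP2 when every probe set was fitted (0.0516), under quantile normalization (0.0511) or with only the 2 groups compared (0.0538).

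The IFITM proteins sit in cell and endosome membranes and hinder fusion of enveloped viruses. IFITM1 read 5.37 and 5.81 in scramble, 6.14 and 6.37 in siRRM1 and 6.43 and 7.05 in siRRM2 (214022_s_at). The groups did not overlap, and siRRM2 replicate 2 was the highest array. IFITM1 rose by 1.15 in siRRM2 (SE 0.22, adjusted p = 0.0420), 2.22-fold, and this was the largest difference among the tested members there. In siRRM1 its difference was 0.66 (adjusted p = 0.0797). IFITM2 (201315_x_at) read 5.35 and 5.81 in scramble, 5.80 and 6.15 in siRRM1 and 5.86 and 6.10 in siRRM2, with differences of 0.40 (adjusted p = 0.170) and 0.40 (adjusted p = 0.262). IFITM3 (212203_x_at) had differences of 0.40 (adjusted p = 0.0626) and 0.44 (adjusted p = 0.102). The 3 genes are direct neighbours on chromosome 11 and closely similar in sequence. On this array the ending _x_at marks probe sets that can also bind other transcripts, so the signals of the 3 genes may not be separate. The IFITM1 and IFITM2 probe sets read the same value on scramble replicate 2, 5.807303. The main probe sets of the tested genes SP110 and IFI16 also end in _x_at. A further probe set, 201601_x_at, is annotated to both IFITM2 and IFITM1 and was therefore named for neither. It read 5.52 and 5.69 in scramble, 6.15 and 6.38 in siRRM1 and 6.34 and 6.89 in siRRM2, close to the pattern of IFITM1. BST2, the tetherin that holds budding virus at the cell surface, had differences of 0.06 and 0.03, at 9.89 to 10.06 on every array. The IFITM1 call was lost without scramble replicate 1 (adjusted p = 0.165), scramble replicate 2 (0.0557), siRRM1 replicate 1 (0.0641), siRRM1 replicate 2 (0.0614) or siRRM2 replicate 2 (0.144), at differences of 0.84 to 1.37. It was also lost when every probe set was fitted or only the 2 groups were compared (0.0611 in each).

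ISG15 and its ligase carried the clearest rises of the ubiquitin-like branch. ISG15, a small protein that is joined to other proteins during the interferon response, read 8.20 and 8.34 in scramble, 9.02 and 9.13 in siRRM1 and 8.86 and 9.06 in siRRM2. Every knockdown array was above both scramble arrays, and the knockdowns overlapped each other. ISG15 rose by 0.81 in siRRM1 (SE 0.11, adjusted p = 0.00474), 1.75-fold, and by 0.69 in siRRM2 (SE 0.11, adjusted p = 0.0255), 1.62-fold. HERC5, the main ligase that attaches ISG15, read 8.07 and 8.25 in scramble, 8.74 and 8.95 in siRRM1 and 8.43 and 8.76 in siRRM2. Scramble was again lowest. HERC5 rose by 0.69 in siRRM1 (SE 0.14, adjusted p = 0.0183), 1.61-fold, with 0.44 in siRRM2 (adjusted p = 0.141). USP18, which removes ISG15 and restrains the receptor, was dim at 3.99 to 4.28, and so was HERC6, the neighbour of HERC5, at 3.51 to 3.84. HERC5 in siRRM1 did not pass without scramble replicate 1 (0.60, adjusted p = 0.0899) or siRRM1 replicate 2 (0.58, adjusted p = 0.113). ISG15 in siRRM2 did not pass without scramble replicate 1 (adjusted p = 0.115), scramble replicate 2 (0.0557), siRRM2 replicate 1 (0.0726) or siRRM2 replicate 2 (0.139), at 0.59 to 0.79.

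ISG20 was the only tested member called lower, and only in siRRM1. It encodes a nuclease that degrades single-stranded RNA. ISG20 read 9.90 and 10.07 in scramble, 9.62 and 9.44 in siRRM1 and 10.13 and 10.26 in siRRM2 (204698_at). The siRRM1 arrays were the lowest and the siRRM2 arrays the highest. ISG20 fell by 0.45 in siRRM1 (SE 0.11, adjusted p = 0.0325), and its difference in siRRM2 was 0.21 (adjusted p = 0.332). The other ISG20 probe set, 33304_at, read 9.73 and 9.92 in scramble, 9.50 and 9.24 in siRRM1 and 9.98 and 9.97 in siRRM2. The fall did not pass without scramble replicate 1 (adjusted p = 0.0622), scramble replicate 2 (0.127), siRRM2 replicate 1 (0.0518), siRRM2 replicate 2 (0.0521) or siRRM1 replicate 2 (0.160), at -0.54 to -0.36, and with only the 2 groups compared (0.0518). TRIM14, an adaptor of mitochondrial antiviral signalling, had -0.15 and -0.14. RSAD2, the radical enzyme viperin, was dim at 3.97 to 4.36.

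TRIM22, a ubiquitin ligase with antiviral activity that is also known as a target of p53, had the largest differences of all 38 genes and was dim. It read 3.03 and 3.20 in scramble, 5.51 and 5.70 in siRRM1 and 4.78 and 5.12 in siRRM2 (213293_s_at). The 3 groups did not overlap, and the siRRM1 arrays were the highest. The scramble signals lay near the lowest value of those arrays, 2.49 to 2.52, and no measure of background was used here. The differences below are therefore between signals and are no measure of the fold of the transcript. In the fit of all 11963 genes without the filter, 5.33% were called higher in siRRM1 and 1.18% in siRRM2. There TRIM22 rose by 2.49 in siRRM1 (SE 0.14, adjusted p = 8.43e-05) and by 1.84 in siRRM2 (SE 0.14, adjusted p = 0.00167). Between the knockdowns its difference was 0.65 (adjusted p = 0.177). Of the other 11 dim genes, XAF1, a promoter of apoptosis, read 4.76 and 5.06 in scramble, 5.24 and 5.77 in siRRM1 and 5.27 and 5.31 in siRRM2, with an adjusted p of 0.0706 and 0.339 without the filter. IFI44 and IFI44L, neighbours on chromosome 1, lay at 3.41 to 3.77.

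The nuclear body proteins SP110 and SP100 are chromatin readers of interferon-treated cells. SP110 read 6.20 and 6.52 in scramble, 7.21 and 7.63 in siRRM1 and 6.81 and 7.07 in siRRM2 (208012_x_at). Scramble was lowest, siRRM1 highest, and no groups overlapped. SP110 rose by 1.06 in siRRM1 (SE 0.17, adjusted p = 0.00884), 2.09-fold, which was the largest difference among the tested members there, and its difference in siRRM2 was 0.59 (adjusted p = 0.122). Its other probe sets gave 1.37 and 0.87 (209762_x_at), 1.28 and 0.89 (209761_s_at) and 0.41 and 0.42 (208392_x_at) in siRRM1 and siRRM2. SP100, which lies 2 genes away on chromosome 2, had 0.33 in siRRM1 (adjusted p = 0.0631) and 0.29 in siRRM2 (adjusted p = 0.157). Its 4 other probe sets had differences of 0.17 to 0.55 in siRRM1 and 0.06 to 0.39 in siRRM2. SP110 in siRRM1 was lost without siRRM1 replicate 2 (0.85, adjusted p = 0.0551).

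Of the IFI genes with less defined roles, IFI27, a small mitochondrial membrane protein, passed in siRRM2. It read 5.46 and 5.35 in scramble, 5.62 and 5.41 in siRRM1 and 6.09 and 6.07 in siRRM2. The siRRM2 arrays stood apart, and siRRM1 overlapped scramble. IFI27 rose by 0.67 in siRRM2 (SE 0.10, adjusted p = 0.0249), 1.60-fold, with 0.11 in siRRM1 (adjusted p = 0.526). IFI6, a related membrane protein, had 0.22 (adjusted p = 0.215) and 0.40 (adjusted p = 0.113), and IFI35 had 0.24 (adjusted p = 0.135) and 0.27 (adjusted p = 0.181). The IFI27 call did not pass without scramble replicate 1 (adjusted p = 0.0770), scramble replicate 2 (0.0871), siRRM2 replicate 1 (0.128) or siRRM2 replicate 2 (0.124), at 0.62 to 0.73.

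**Figure D4:**
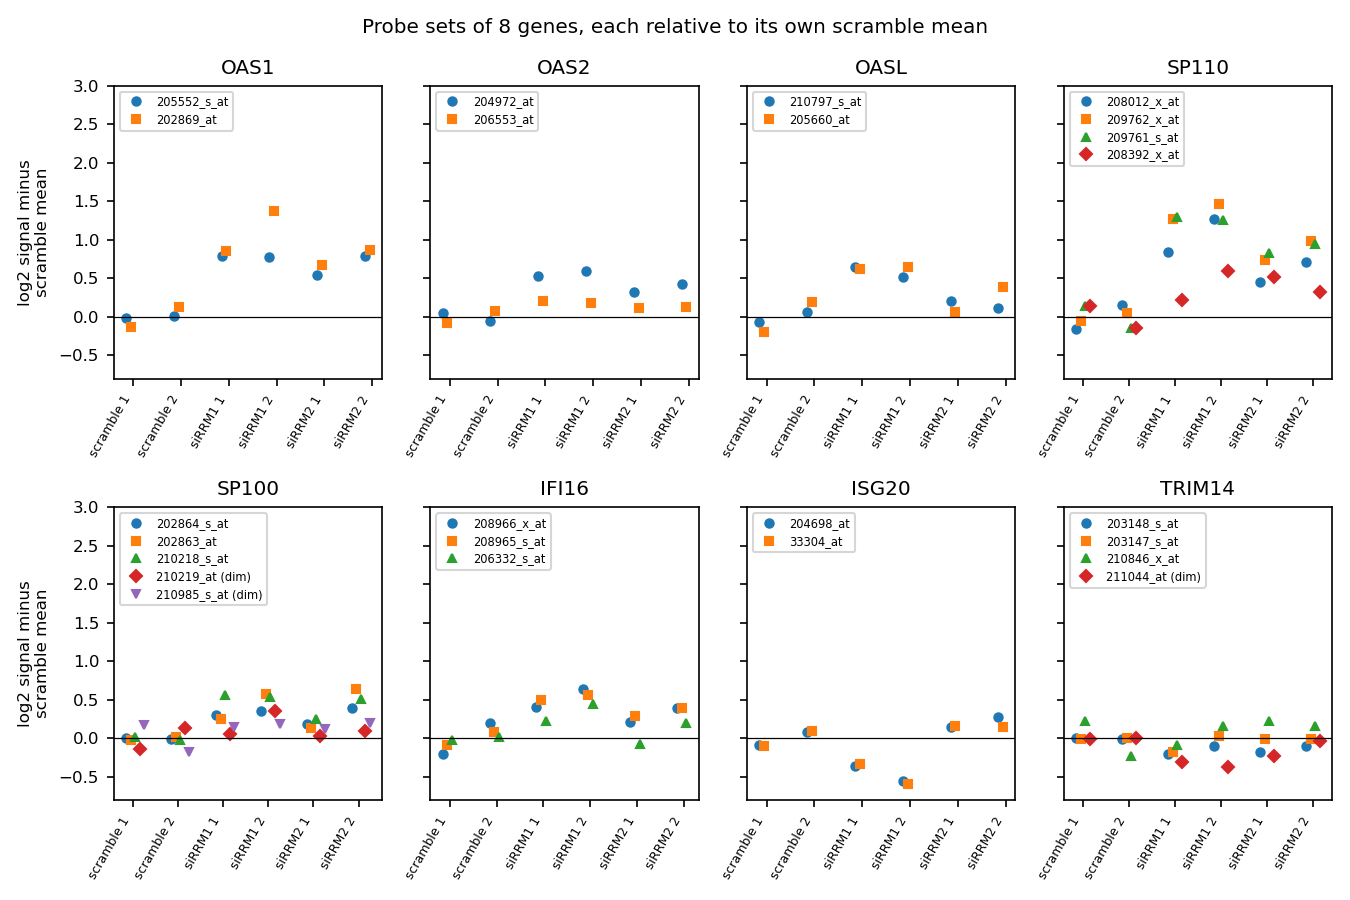
Log2 signal of every probe set of 8 genes on the 6 arrays (horizontal axis), minus that probe set's mean over the 2 scramble arrays (vertical axis); symbols mark probe sets, and those under the filter are labelled dim. The probe sets of OAS1, OASL, SP110 and ISG20 run the same way within each gene, and those of TRIM14 do not.

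Over all 59 probe sets, 36 had both siRRM1 arrays above both scramble arrays and 38 had both siRRM2 arrays above, against 23.4% and 22.3% of all probe sets on the array. Of the 13 genes with several probe sets, all probe sets of a gene had the same sign for 10 in siRRM1 and 9 in siRRM2. Those of EIF2AK2, IFIH1 and TRIM14 disagreed in both, and IFI44 disagreed in siRRM2.

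The comparison of siRRM1 with siRRM2 asked whether the loss of either subunit left a different interferon-stimulated profile. By limma 0 of the 26 genes were called, against 0.164% of all genes. At an unadjusted p under 0.05 were 8 (30.8%), against 10% of all genes. The median difference was -0.02, with a range from -0.66 to 0.48. Both siRRM1 arrays lay above both siRRM2 arrays for 4 genes (18.9% of all genes) and below for 8 (21.8%). The smallest adjusted p values were 0.0656 for IRF7, with a difference of -0.58, and 0.0760 for ISG20, with -0.66. IFI27 had -0.57 (adjusted p = 0.113), OASL 0.42 (0.178), IRF9 -0.34 (0.484) and SP110 0.48 (0.418). With 2 arrays a group, a p that misses the threshold does not show that the knockdowns act alike.

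The pathway was then read upstream of these genes. Of 21 interferon genes, the ligands, 14 had a probe set and 0 passed the filter. Their signals lay between 2.86 and 5.66 on all arrays. Without the filter their differences ran from -0.05 to 0.15 in siRRM1, with 0 called and 0 at an unadjusted p under 0.05 by limma. In siRRM2 they ran from -0.29 to 0.19, with 0 called and 1 at an unadjusted p under 0.05, IFNG (-0.29, adjusted p = 0.186). IFNB1, the type I interferon that most cells make first, read 4.34 and 4.49 in scramble, 4.20 and 4.63 in siRRM1 and 4.04 and 4.48 in siRRM2, with overlapping groups. The IFNA genes are near-identical copies whose probe sets may share signal.

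Among receptors and signal transducers, 13 of 16 genes were tested. In siRRM1 3 rose, against 8.22% of all genes, and 0 fell: the transcription factor STAT3 (0.47, adjusted p = 0.0210), the interferon gamma receptor chain IFNGR2 (0.41, adjusted p = 0.0263) and the kinase TYK2 (0.39, adjusted p = 0.0328). In siRRM2 limma called 0 of the 13, against 2.00% of all genes higher, with 4 at an unadjusted p under 0.05, and the smallest were IFNGR2 (0.37, adjusted p = 0.0854) and TYK2 (0.34, adjusted p = 0.109).

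Among genes of nucleic acid sensing, 13 of 21 were tested, and AIM2 rose in both knockdowns. AIM2, which senses cytosolic DNA and builds an inflammasome, read 6.74 and 7.21 in scramble, 8.13 and 8.69 in siRRM1 and 8.27 and 8.77 in siRRM2. All knockdown arrays lay above scramble. It rose by 1.44 in siRRM1 (SE 0.24, adjusted p = 0.00987) and by 1.55 in siRRM2 (SE 0.24, adjusted p = 0.0255). RNASEH2A, a subunit of the nuclease that removes ribonucleotides from DNA, rose in siRRM1 by 0.60 (adjusted p = 0.0185). The list thus had 2 genes higher in siRRM1 and 1 in siRRM2, against 8.22% and 2.00% of all genes, and 0 lower. IRF3, the factor that switches on IFNB1, had a difference of 0.71 in siRRM2 (adjusted p = 0.0526).

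Of 37 further interferon-stimulated genes outside the 39, 20 were tested. In siRRM1 4 rose, against 8.22% of all genes, and 0 fell, with a median of 0.19 over the 20. TRIM38, a ubiquitin ligase of innate signalling, read 7.16 and 7.56 in scramble, 8.67 and 8.76 in siRRM1 and 7.88 and 8.32 in siRRM2. It rose by 1.36 in siRRM1 (adjusted p = 0.00416), and the others that rose were the receptor chaperone RTP4 (0.93, adjusted p = 0.00951), the ubiquitin ligase TRIM26 (0.53, adjusted p = 0.0138) and the inflammasome protease CASP1 (0.81, adjusted p = 0.0145). In siRRM2 limma called 0 of the 20, against 2.00% of all genes higher, with 6 at an unadjusted p under 0.05 and a median of 0.17. The smallest there were TRIM38 (0.74, adjusted p = 0.0750) and RTP4 (0.62, adjusted p = 0.0846). Between the knockdowns 0 genes of these 3 tested lists were called. At an unadjusted p under 0.05 were 0 receptors and transducers, 3 sensing genes (23.1%) and 1 further interferon-stimulated gene (5%). The share over all genes was 10%.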

How the data were processed

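The submitters deposited log2 signals per the file headers and values, 1 per probe set and array. Their summary and normalization were not given in the sources used here. Base 2 follows from the highest values, about 14.4 on each array. No further scaling was applied. The platform annotation named the probe sets: 19070 had 1 gene symbol, 1043 several and 2164 none, and none was named from several symbols. Gene identifiers of 19058 matched RefSeq, which changed 0 symbols. Precision is limited by 2 arrays per group.

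Differences were tested over all 7936 genes by lmFit and eBayes of limma 3.58.1 under R 4.3.3 (3 residual and 4.61 prior degrees of freedom), two-sided, with 3 contrasts. The code was tested on simulated data. The members and gene lists were chosen with earlier results of these data known. Named genes were all members and, per further list, up to 3 called in a direction or the 2 with the smallest p. CASP1 was named after its values were seen. Some genes that were not called, such as IRF3 and IFNB1, were also named outside this rule. The alternatives changed the gene value, filter, scaling, variance model, samples and pairing. Replicate numbers are shared by the groups, but the labels do not say that they mark a shared culture, so no pairing was used. Fits of dim genes without the filter under other settings were chosen after seeing the data. Promoter sequences are from RefSeq (GRCh38.p14).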

Additional observations from a re-analysis of the deposited data

Results flagged for a closer look

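TRIM22 carried a signal outside the tested genes, since its mean lay under the filter. Its log2 difference was 2.49 in siRRM1 and 1.84 in siRRM2 against scramble, whose signals of 3.03 and 3.20 were near the lowest on those arrays. The differences are between signals and are no measure of the fold of the transcript. In the fit without the filter it was called in both knockdowns under each of the other scalings, with a trend in the variance model and without each array in turn. These combined settings were chosen after seeing the data. The differences ran from 2.40 to 2.58 in siRRM1 (adjusted p 1.24e-05 to 0.00196, limma) and from 1.67 to 2.01 in siRRM2 (3.73e-04 to 0.0158).

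The probe set 201601_x_at, annotated to both IFITM2 and IFITM1 and so used for neither, had a log2 difference of 0.66 in siRRM1 and 1.01 in siRRM2, with all 4 knockdown arrays above both scramble arrays.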

How the results depend on the processing

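For 42 results of single genes, 15 alternatives gave 612 values: 0 reversed a call, 545 kept their side of the threshold, 46 lost a call and 21 gained one. The sign changed in 5 with no call on either side. ISG15 and OAS1 in siRRM1 kept their calls under every alternative run for them. The members called numbered 8 in siRRM1 and 6 in siRRM2, and the other gene values, filters, scalings and variance model gave 6 to 9 and 4 to 8. Leaving out 1 array gave 3 to 8 in siRRM1, 0 to 5 in siRRM2 and 0 between the knockdowns. With the replicate number as a block, 14 members were called in siRRM1, 12 in siRRM2 and 4 between the knockdowns: IRF7 (adjusted p = 0.0190, limma), ISG20 (0.0248), IFI27 (0.0233) and SP110 (0.0407). With a trend in the variance model 1 was called there, ISG20 (0.0346). The deviations of same-numbered arrays correlated at 0.38 (scramble and siRRM1), 0.36 (scramble and siRRM2) and 0.21 (siRRM1 and siRRM2). IRF9 in siRRM2 passed when the probe sets of each gene were averaged, with the higher filter, quantile normalization, the trend or the block, and without scramble replicate 2. IRF9 has a single probe set of its own, so the averaging changed only the values of other genes. IFITM1 in siRRM1 passed with the block, with only the 2 groups compared (adjusted p = 0.0428) and without either siRRM2 array. Over all genes, the 1234 calls in siRRM1 became 1904 with the block, 505 without scramble replicate 1, 709 without scramble replicate 2 and 307 without siRRM1 replicate 2. The 200 in siRRM2 became 336 with the trend, 622 with the block and 13 to 51 without a scramble or siRRM2 array, and the 13 between the knockdowns became 42 with the trend, 153 with the block and 2 to 16 under the other alternatives. Signals under the filter, near the lower end of the array's range, limit what can be said of the 12 dim genes.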
